A study of Homo sapiens with 4 samples.

Results

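The regions described here are stretches of open chromatin at the ends of protein-coding genes that the deposited peak lists placed in 1 genotype and not in the other. The peaks of the 4 lists on chromosomes 1 to 22 were merged wherever they overlapped by at least 1 bp, which gave 134897 regions. Of these, 15021 lay within 1 kb of either end of a protein-coding gene and are called gene-end regions. A gene-end region was KO-only when both DEK KO lists and neither WT control list held a peak in it, and WT-only when both WT control lists and neither DEK KO list did. The rule found 538 such regions, 332 KO-only and 206 WT-only. The members were chosen by the peak calls, so their numbers and the strength of their peaks are a description with no test.

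The series measured chromatin accessibility by ATAC-seq, in which a transposase cuts and tags open DNA, in 786-O, a line derived from human clear cell renal carcinoma. Of the 4 libraries, 2 were DEK KO and 2 were WT control. Both groups carried Cas9, since the negative control cells and the knockout cells came from a clone made with LentiCas9-Blast virus, and the DEK KO cells had also received DEK guide RNAs by LentiGuide-Puro virus and had been sorted as single cells. Nothing in the labels shows that same-group libraries are independent clones or cultures, and p-values over libraries therefore measure a spread that may be technical. The labels' extraction text describes RNA although the molecule is given as genomic DNA.

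DEK is an abundant DNA-binding protein of the nucleus that bends and folds chromatin and acts as a histone chaperone. Open chromatin at the start of a gene marks the promoter, where nucleosomes give way to the transcription machinery, and promoters rich in CpG dinucleotides are open in most cell types. Open chromatin at the stop of a gene more often belongs to other elements, such as enhancers or the promoter of a neighbouring gene.

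The lists held 100037 and 96862 peaks in DEK KO replicates 1 and 2, against 87220 and 88059 peaks in WT control replicates 1 and 2. The files hold peaks only, so read depth is unknown. In bulk cells, a region open in fewer cells and one less open in each cell cannot be told apart. Of these peaks, 12965 and 13152 lay at gene ends in DEK KO, against 12857 and 12877 in WT control, or 13058.5 ± 132 and 12867 ± 14.1 (SD, n = 2 each). The difference of 191.5 peaks had a two-sided exact permutation p of 0.333, the smallest that 4 libraries allow. It turned to -359.5 when every list was cut to the length of the shortest. No region of either class lay at an end of DEK itself, and peak calls say nothing of the protein, so the knockout could not be checked here.

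KO-only regions made up 2.21% of all gene-end regions and WT-only regions 1.37%, while 75.1% of gene-end regions were called in all 4 lists. Over all merged regions the KO-only share was 6.24% and the WT-only share 2.56%, with 45.2% in all 4 lists. Away from gene ends the shares were 6.75% KO-only and 2.71% WT-only, with 41.5% in all 4 lists. A gene end was thus less often the site of a one-genotype call than the rest of the merged regions in these lists. The order of the 2 counts turned with every list cut to its 87220 strongest peaks, which gave 232 KO-only and 311 WT-only gene-end regions. That cut kept 230 of the 332 KO-only members and 204 of the 206 WT-only members. It falls mainly on the longer DEK KO lists, and a region that loses its DEK KO peaks can become WT-only. Keeping only peaks with a −log10 q of at least 5 left the order as it was, with 247 KO-only and 182 WT-only regions. Without DEK KO replicate 1 the counts were 934 KO-only and 416 WT-only, and without DEK KO replicate 2 they were 807 and 422 in that order. Without WT control replicate 1 they were 608 KO-only and 613 WT-only, and without WT control replicate 2 they were 550 KO-only and 578 WT-only. The order thus also turned when either WT control replicate was left out.

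Promoter sequence shows how unlike these starts are to one another. The sequences below are the 250 bases before the annotated start, 5′ to 3′ on the gene's strand, from RefSeq GRCh38.p14, for high-ranked members whose region covered the whole promoter window. Capitals mark CpG dinucleotides. The first 3 are KO-only. SMTN encodes smoothelin, a cytoskeletal protein of smooth muscle (chr22:31063868-31064117, plus strand). PSMB11 encodes a proteasome subunit of the thymus (chr14:23041962-23042211, plus strand). CEBPA encodes a transcription factor of liver, fat and myeloid differentiation (chr19:33302535-33302784, minus strand).
SMTN: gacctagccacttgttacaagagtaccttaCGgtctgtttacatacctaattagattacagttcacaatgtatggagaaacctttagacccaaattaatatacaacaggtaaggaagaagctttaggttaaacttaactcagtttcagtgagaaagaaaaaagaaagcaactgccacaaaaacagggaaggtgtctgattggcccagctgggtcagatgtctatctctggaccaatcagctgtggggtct
PSMB11: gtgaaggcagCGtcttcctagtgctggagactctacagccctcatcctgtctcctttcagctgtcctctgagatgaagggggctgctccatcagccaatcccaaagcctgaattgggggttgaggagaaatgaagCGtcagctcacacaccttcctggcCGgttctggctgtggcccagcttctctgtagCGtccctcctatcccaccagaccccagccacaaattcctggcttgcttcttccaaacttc
CEBPA: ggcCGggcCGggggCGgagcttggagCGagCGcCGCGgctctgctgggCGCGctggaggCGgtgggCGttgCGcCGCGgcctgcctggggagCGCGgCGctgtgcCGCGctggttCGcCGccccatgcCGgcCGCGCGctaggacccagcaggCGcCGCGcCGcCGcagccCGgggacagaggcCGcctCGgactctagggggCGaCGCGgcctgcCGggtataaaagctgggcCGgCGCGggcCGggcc

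The next 4 are WT-only. PHLDB1 encodes a protein that anchors microtubules at the cell cortex (chr11:118606186-118606435, plus strand). NTM encodes neurotrimin, a cell adhesion molecule of neurons (chr11:131370365-131370614, plus strand). GNPDA1 encodes a glucosamine-6-phosphate deaminase (chr5:142013028-142013277, minus strand). APELA encodes a peptide hormone of the apelin receptor (chr4:164876928-164877177, plus strand).
PHLDB1: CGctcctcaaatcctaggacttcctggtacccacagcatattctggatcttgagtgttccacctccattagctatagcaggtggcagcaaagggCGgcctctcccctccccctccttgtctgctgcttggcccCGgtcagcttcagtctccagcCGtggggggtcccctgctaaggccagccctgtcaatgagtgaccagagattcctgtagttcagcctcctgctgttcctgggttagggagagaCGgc
NTM: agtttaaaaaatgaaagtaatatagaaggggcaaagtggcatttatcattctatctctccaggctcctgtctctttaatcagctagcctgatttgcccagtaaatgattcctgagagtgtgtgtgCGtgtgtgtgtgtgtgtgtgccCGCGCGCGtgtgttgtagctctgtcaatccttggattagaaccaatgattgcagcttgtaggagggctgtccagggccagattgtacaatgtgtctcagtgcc
GNPDA1: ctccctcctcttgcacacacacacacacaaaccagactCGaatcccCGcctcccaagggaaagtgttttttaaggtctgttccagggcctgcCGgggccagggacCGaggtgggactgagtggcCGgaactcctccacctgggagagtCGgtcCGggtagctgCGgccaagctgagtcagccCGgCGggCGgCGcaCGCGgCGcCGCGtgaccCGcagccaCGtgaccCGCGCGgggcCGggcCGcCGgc
APELA: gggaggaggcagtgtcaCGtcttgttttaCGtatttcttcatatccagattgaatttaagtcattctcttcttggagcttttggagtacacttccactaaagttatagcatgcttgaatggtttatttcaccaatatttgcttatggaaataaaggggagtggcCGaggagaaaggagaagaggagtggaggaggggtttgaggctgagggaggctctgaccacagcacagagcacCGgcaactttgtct

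The KO-only sequences hold 1 CpG in SMTN, 4 in PSMB11 and 41 in CEBPA. The WT-only sequences hold 5 in PHLDB1, 5 in NTM, 25 in GNPDA1 and 4 in APELA. Both classes therefore contain CpG-poor starts beside CpG-rich ones. GC content of the 250 bases ran from 40.8% in SMTN to 81.2% in CEBPA among the printed KO-only starts. Among the printed WT-only starts it ran from 45.2% in APELA to 69.6% in GNPDA1.

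Across all members whose region touched the promoter window of the RefSeq table, from 250 bases before the start to 50 after it, CpG content was lower than at starts open in all 4 lists. The ratio of observed to expected CpG had a median of 0.607 in 59 KO-only promoters and of 0.360 in 43 WT-only promoters, against 0.856 in 7020 promoters touched by a region of all 4 lists and 0.767 in all 15101 promoters of the table. A ratio of at least 0.6, a common limit for CpG islands, was reached by 30 of the 59 KO-only promoters (50.8%) and 17 of the 43 WT-only promoters (39.5%), against 88.9% of those in all 4 lists and 66.3% of all. Median GC content differed less, at 62.3% in KO-only promoters, 61.7% in WT-only promoters, 65.7% in those of all 4 lists and 63.0% in all. It ran from 37.7% to 84.3% over the 59 KO-only and from 39.7% to 78.3% over the 43 WT-only promoters. Promoters are not replicates of a genotype, so these shares describe the lists and carry no test.

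Short motifs were then searched on both strands of the same windows. The ETS core CCGGAA, carried by many CpG-rich promoters, was found in 4 of 59 KO-only promoters (6.78%) and 4 of 43 WT-only promoters (9.30%), against 33.1% in all 4 lists and 23.1% of all promoters. The SP/KLF box GGGCGG was found in 54.2% of KO-only and 39.5% of WT-only promoters, against 73.0% in all 4 lists and 58.9% of all. The letters CCAAT were about as frequent everywhere, at 37.3% of KO-only and 32.6% of WT-only promoters, against 38.8% in all 4 lists and 36.0% of all. The TEAD letters CATTCC were in 7 KO-only promoters (11.9%) and 10 WT-only promoters (23.3%), against 10.4% in all 4 lists and 11.7% of all. The AP-1 letters TGANTCA were in 4 KO-only (6.78%) and 2 WT-only promoters (4.65%), against 4.76% in all 4 lists and 5.70% of all.

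The remaining motifs searched were the HIF core ACGTG, the E-box CACGTG, the TATA box letters TATAAA, the cyclic AMP response element TGACGTCA, the YY1 letters ATGGCGG, the RUNX letters TGTGGT and the NRF1 palindrome. The HIF core lies within the E-box, so a match to CACGTG is also a match to ACGTG. The HIF core was in 30.5% of KO-only and 20.9% of WT-only promoters, against 27.9% in all 4 lists and 23.6% of all. CACGTG was in 13.6% of KO-only and 9.30% of WT-only promoters, against 10.4% in all 4 lists and 8.77% of all. Both motifs had a higher share in KO-only than in WT-only promoters, on 8 and 4 promoters for the E-box. TATAAA was in 6.78% of KO-only and 9.30% of WT-only promoters, against 5.27% in all 4 lists and 9.71% of all. ATGGCGG was in 6.78% of KO-only and 2.33% of WT-only promoters, against 11.4% in all 4 lists and 7.62% of all. Neither of these 2 motifs was in more than 4 promoters of a class. TGTGGT was in 15.3% of KO-only and 11.6% of WT-only promoters, against 8.56% in all 4 lists and 10.8% of all. TGACGTCA was in 0 KO-only promoters and 1 WT-only promoter, and the NRF1 palindrome was in 0 of either class, against 2.74% in all 4 lists. A match is a run of letters and does not show that the factor binds there.

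Among the printed sequences, SMTN carries CCAAT letters 19 bases before the start and, on the other strand, 53 bases before it. CEBPA carries GGGCGG letters and a TATAAA run that begins 30 bases before the start, the usual place of a TATA box. GNPDA1 carries the widest set of motifs of the 7, with CCGGAA beginning 127 bases, an AP-1 match 78 bases, GGGCGG 64 bases and CACGTG 31 bases before the start. APELA carries ACGTG letters on the opposite strand 235 bases before the start.

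Start and stop of transcription were told apart by gene strand, which the RefSeq table gave for 15101 of 19126 genes. A region within 1 kb of a start and of a stop counted as a start. KO-only regions lay at a start in 136 of 255 cases with known strand (53.3%, exact 95% binomial interval 47.0 to 59.6), and 119 lay at a stop only. WT-only regions lay at a start in 91 of 159 cases (57.2%, 49.2 to 65.0), and 68 lay at a stop only. The 2 intervals overlap. Regions called in all 4 lists lay at a start in 8296 of 9472 cases (87.6%, 86.9 to 88.2). Strand was unknown for 77 KO-only and 47 WT-only members, and intervals cover counting error only.

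Regions next to the rule looked alike. Of gene-end regions in both DEK KO lists and 1 WT control list, 58.2% lay at a start, and of those in both WT control lists and 1 DEK KO list, 59.4% did. Regions in 1 list or in 1 list of each genotype lay at a start in 49.0% of cases. A lower share of starts than in all 4 lists was thus seen in every kind of gene-end region that some list missed, in either genotype. Seen from the other side, 4.59% of the 2591 stop-only regions fell in the KO-only class, 2.62% in the WT-only class and 45.4% in all 4 lists, against 1.38%, 0.925% and 84.3% of the 9840 start regions in that order. Without DEK KO replicate 2, the share of KO-only regions at a start was 45.9%, below the interval given above.

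**Figure D1:**
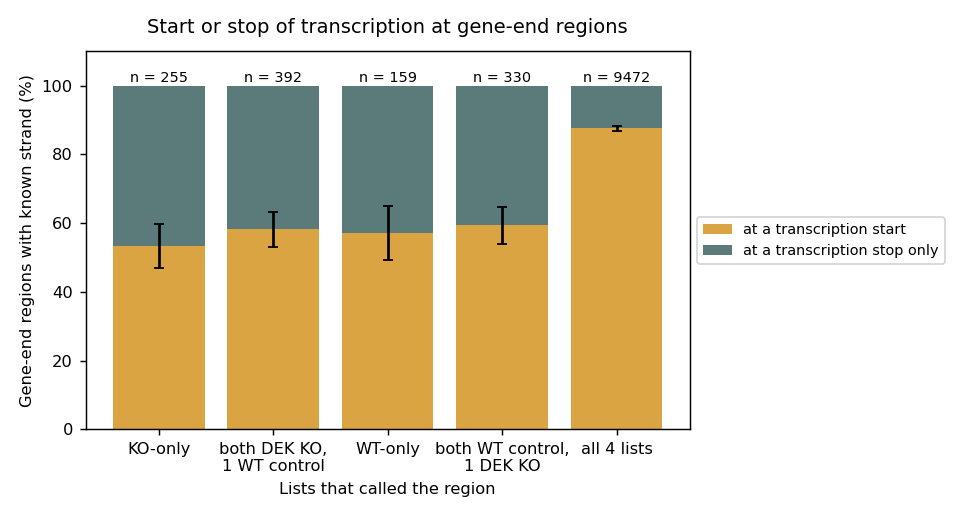
Share of gene-end regions with known strand (y axis, %) at a transcription start and at a stop only, for KO-only regions, regions of both DEK KO lists and 1 WT control list, WT-only regions, regions of both WT control lists and 1 DEK KO list, and regions of all 4 lists (x axis). Black bars are exact 95% binomial intervals of the start share, which is 53.3% in KO-only and 57.2% in WT-only regions and 87.6% in regions of all 4 lists.

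The same measure over every gene-end peak of a list, which does not use the rule, gave 83.6% and 84.2% at a start in DEK KO replicates 1 and 2, against 85.0% in both WT control replicates. Every DEK KO list was thus below both WT control lists. The means were 83.9 ± 0.409% in DEK KO and 85.0 ± 0.00560% in WT control (SD, n = 2 each), a difference of -1.08 percentage points with a two-sided exact permutation p of 0.333. With lists of equal length the difference was 0.303 points (exact permutation p = 0.667), so its direction turned with that cut. Among peaks with a −log10 q of at least 5 it was -0.380 points (exact permutation p = 0.667).

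Where the nearest end was a start, the member covered the end itself in 51 of 133 KO-only cases (38.3%) and 35 of 90 WT-only cases (38.9%). At stops it covered the end in 19 of 120 KO-only cases (15.8%) and 12 of 68 WT-only cases (17.6%). Start members of both classes thus sat on the end more often than stop members did. The midpoint lay inside the gene body in 70 KO-only and 54 WT-only start members, and in 55 KO-only and 29 WT-only stop members. At the edge of the window, the last KO-only members inside were at SLC17A7, 995 bp from the gene's end, and GRAMD2A, 989 bp, and the first outside were at IL36B, 1001 bp, and SPATA31G1, 1002 bp. For WT-only regions, MARCKSL1 at 999 bp and KCNV1 at 998 bp were inside, and RFPL1 at 1008 bp and DVL1 at 1009 bp were outside.

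**Figure D2:**
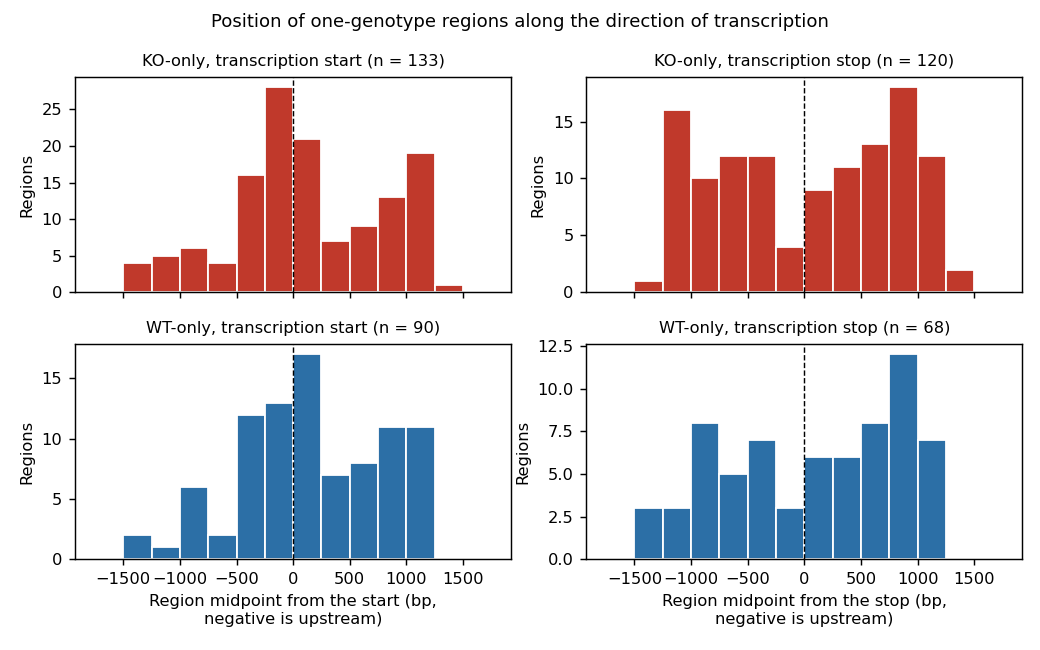
Number of regions (y axis) by distance of the region's midpoint from the nearest gene end in bp (x axis, negative is upstream along transcription, bins of 250 bp), for KO-only regions in the upper row and WT-only regions in the lower row, with starts on the left and stops on the right. The dashed line is the gene end, and 51 of 133 KO-only and 35 of 90 WT-only start members covered it.

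A region of all 4 lists shared the gene end of 45 of 332 KO-only members (13.6%) and 35 of 206 WT-only members (17.0%), and most members had none there. A region of all 4 lists lay at the same start in 32 of 133 KO-only cases (24.1%) and 20 of 90 WT-only cases (22.2%). At a stop this was rarer, in 5 KO-only cases (4.17%) and 4 WT-only cases (5.88%). The other end of the gene carried a region of all 4 lists for 74 KO-only stop members (61.7%) and 43 WT-only stop members (63.2%), so most stop members belonged to genes open at their start in all libraries. Genes with no region of all 4 lists at either end held 86 KO-only and 61 WT-only start members, and 43 KO-only and 23 WT-only stop members. The median distance to the nearest region of all 4 lists was 7.66 kb for KO-only and 6.63 kb for WT-only members.

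The distance to the other genotype's peaks varied widely. The nearest peak of the other genotype was at a median of 4.40 kb from KO-only and 3.09 kb from WT-only members, and within 200 bp of 6 members of each class. GNPDA1 had a DEK KO peak 43 bp from its WT-only region, whereas the nearest WT control peak to the KO-only region at KLK10 was 75340 bp away. Both genes were picked after their values were seen.

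Within their own lists the members were weak peaks. Each peak was ranked by its −log10 p among all peaks of its list, with 100 as the strongest. KO-only members had median percentiles of 23.2 in DEK KO replicate 1 and 26.5 in DEK KO replicate 2, and WT-only members 17.1 in WT control replicate 1 and 19.6 in WT control replicate 2. Gene-end regions of all 4 lists had medians of 78.4 to 81.1. The median fold over background at the summit, as the authors' peak caller gave it, was 3.999 and 4.17 for KO-only members in the DEK KO lists and 3.84 and 3.58 for WT-only members in the WT control lists, against 7.12 to 8.46 for regions of all 4 lists.

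The lower of a member's 2 percentiles was used to order members. It ran from 0.456 to 69.5 with a median of 17.0 in KO-only members, and from 0.790 to 75.4 with a median of 13.9 in WT-only members. Only 22 KO-only and 7 WT-only members were above the 50th percentile in both of their lists. A −log10 q of at least 5 in both lists was reached by 133 KO-only members (40.1%) and 72 WT-only members (35.0%). At the other limit, the weakest calls were those of MMP3, RAB43 and SAPCD1 among KO-only members, with a −log10 q of 1.38 in DEK KO replicate 2, and of PDGFRB among WT-only members, with 1.40 in WT control replicate 2. The authors' lists end at 1.30 to 1.32.

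**Figure D3:**
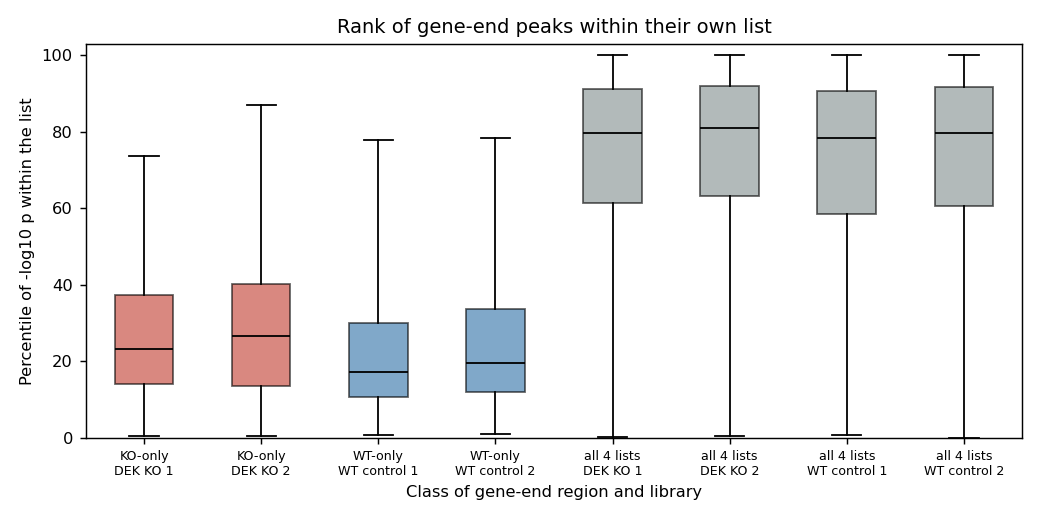
Percentile of −log10 p within the own list (y axis) for KO-only members in the DEK KO lists, WT-only members in the WT control lists and gene-end regions of all 4 lists in each library (x axis). Boxes span the quartiles with the median as a line and whiskers reach the lowest and highest value, and the member medians of 17.1 to 26.5 lie below the medians of 78.4 to 81.1 in regions of all 4 lists.

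The strongest KO-only start was at MLLT1, which encodes a reader of acetylated histones in transcription elongation complexes. Its region (chr19:6279963-6280362) covered the gene's start and had folds of 7.73 and 11.97 in replicates 1 and 2 of DEK KO and no peak in WT control, with the nearest WT control peak 5463 bp away. TTLL1, a tubulin glutamylase, followed at 851 bp from its start (chr22:43090242-43090611) with folds of 5.02 and 6.26. A region of all 4 lists lay at the same TTLL1 start, 545 bp from this one. HEPACAM, a cell adhesion molecule of glia and liver, had folds of 7.20 and 13.3 (chr11:124934535-124935442), and no WT control peak lay within 18 kb of it.

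FOXK2, a forkhead transcription factor, had DEK KO folds of 4.51 and 6.26 at a region 21 bp from its start (chr17:82519047-82519711). The region at LOC124901225, with folds of 6.24 and 8.39, also lay within 1 kb of HMGA1, an architectural chromatin protein that binds the DNA minor groove (chr6:34235734-34236258). MEGF9, a membrane protein with EGF-like repeats, had 3.23 and 3.35, and PLAUR, the urokinase receptor, 3.08 and 3.23. The MEGF9 region lay 557 bp, and the PLAUR region 461 bp, from a region of all 4 lists at the same start. Each was thus a second opening at a start that was open throughout.

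SMTN, whose CpG-poor promoter is printed above, had folds of 6.52 and 8.63. AZGP1, a secreted lipid-mobilising glycoprotein, had 5.71 and 8.26 at a region that covered its start, and KDF1, a factor of keratinocyte differentiation, had 5.72 and 8.18. LOC122455342 had 5.48 and 5.87. MAP1LC3BP1, with 5.37 and 5.27, is a near copy of MAP1LC3B, so reads placed there may belong to the parent gene.

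In the WT-only class the strongest start was at LOC124900512 (chr2:96009992-96010585), with folds of 10.8 in both WT control replicates. A DEK KO peak lay 495 bp from it. STEAP1B, a relative of the metalloreductase STEAP1, had folds of 12.5 and 10.7 at a region on its start (chr7:22500031-22500320), with no DEK KO peak within 10 kb. MARCKSL1, an actin-linked kinase substrate, had 6.11 and 5.48, and its region lay at the edge of the window (chr1:32337232-32338071). ARHGEF35 had 10.5 and 7.67, but it has a near-identical neighbour, ARHGEF5, so the placement of its reads is uncertain.

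RIPOR1 had WT control folds of 3.64 and 3.34, and PHLDB1 had 4.49 and 3.79. KCNA2, a voltage-gated potassium channel of neurons, had 5.74 and 6.90, and ZNF124, a zinc finger protein, 6.33 and 5.82. S100A16, a calcium-binding protein, had 3.22 and 2.55, NTM 6.66 and 5.24, and GNPDA1 3.14 and 2.78. IDH2, the mitochondrial NADP-dependent isocitrate dehydrogenase, had 3.36 and 3.62 at a region 550 bp from one of all 4 lists.

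**Figure D4:**
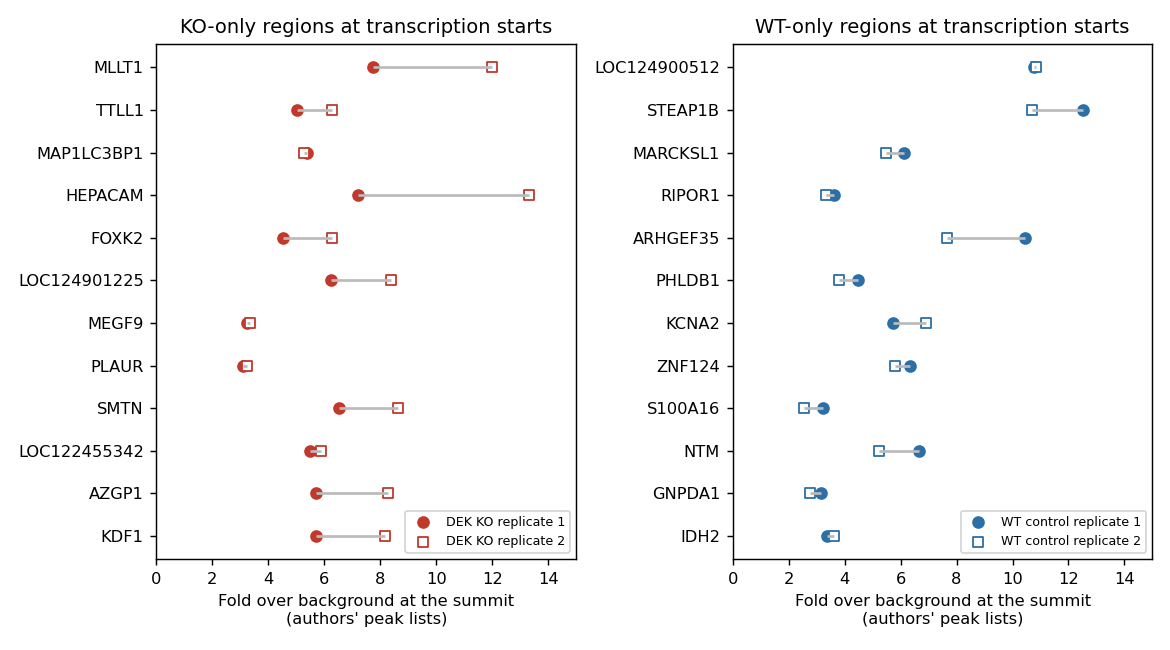
Fold over background at the summit from the authors' peak lists (x axis, linear) for the 12 highest-ranked start members of the KO-only class in the DEK KO replicates (left) and of the WT-only class in the WT control replicates (right). Filled circles are replicate 1 and open squares replicate 2, grey lines join them, and MLLT1 stands at 7.73 and 11.97 and STEAP1B at 12.5 and 10.7.

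At stops, the strongest KO-only member was at PRDM9, the histone methyltransferase that places meiotic recombination (chr5:23527339-23527871), with folds of 7.11 and 8.75. PCOLCE, an enhancer of procollagen processing, had 4.48 and 4.96, and GUCY2D, a guanylate cyclase of photoreceptors, 8.72 and 9.53. MFSD1, a lysosomal transporter, had 8.92 and 13.6. PPP2R2C, a regulatory subunit of protein phosphatase 2A, had 4.21 and 6.82 with percentiles of 58.2 in DEK KO replicate 1 and 87.1 in DEK KO replicate 2.

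CHRD, the BMP antagonist chordin, had folds of 7.35 and 8.28 in the DEK KO replicates, OSTF1 had 9.48 and 8.05, and TFAM, which packages and transcribes mitochondrial DNA, had 7.17 and 8.40. The TFAM region lay 12686 bp from the nearest region of all 4 lists.

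WT-only stop members were led by PSMA3, a subunit of the proteasome core (chr14:58272584-58273447), with folds of 7.22 and 6.71 in the WT control replicates. C11orf97 had 8.23 and 6.49. PDSS2, an enzyme of coenzyme Q synthesis, had 6.80 and 6.20, and WDR83 had 4.21 and 3.94. GPX2, a glutathione peroxidase of epithelia, had 7.96 and 5.86, MAMDC4 4.47 and 4.06, and TK2, the mitochondrial thymidine kinase, 3.63 and 2.83. FAT1, an atypical cadherin, had 6.65 and 5.61 at a region that covered its stop.

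Some starts stood alone. For 31 of 133 KO-only (23.3%) and 16 of 90 WT-only start members (17.8%), the other genotype had no peak anywhere in the gene or within 1 kb of it. The genes named from these 2 groups were chosen after their values were seen. Over all members, whatever their nearest end, the shares were 22.3% KO-only and 14.1% WT-only. The WT control lists searched for KO-only members were the shorter lists. Besides HEPACAM, AZGP1, PSMB11 and CEBPA, the KO-only starts included NES, the intermediate filament nestin, with folds of 3.998 and 4.34, and F10, coagulation factor X, with 6.20 and 4.14. They also included LHX3, a LIM homeobox factor of pituitary and motor neurons, with 3.65 and 4.86, and KLF15, a Krüppel-like factor, with 3.43 and 4.44. LHX3 and KLF15 were weak calls, with lower percentiles of 9.85 and 7.06, and left the class with lists of equal length. CEBPA had 4.68 and 7.85 at a region that covered its start, and the nearest WT control peak was 8381 bp away.

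Among the WT-only starts without any DEK KO peak in the gene were MARCKSL1 and ARHGEF35, given above. PRODH2, an enzyme of hydroxyproline breakdown, had folds of 4.75 and 5.20, and WFDC2, a secreted protease inhibitor of epithelia, had 4.33 and 4.11. BSX, a brain homeobox factor, was near the weak end with 3.48 and 2.95. Peak presence shows accessibility and not expression, so whether any of these genes was transcribed was not measured here.

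The members touched 361 genes with a KO-only and 217 with a WT-only region, or 2.69% and 1.62% of the 13408 genes with any gene-end region. Genes were placed in families by symbol, which is approximate (ITPRIP, a regulator of a calcium channel, falls among ion channels, and the guanylate cyclase GUCY2D among G proteins). Across families the share ran from 1.06% to 10.8% for KO-only regions and from 0% to 5.41% for WT-only regions. The highest KO-only shares were those of olfactory receptors and ion channels, of which 37 of 391 and 165 of 336 genes had any gene-end region.

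Ion channels had KO-only regions at 12 of 165 genes (7.27%) and WT-only regions at 4 (2.42%). The KO-only ones were led by HTR3D, a serotonin receptor channel, with folds of 7.20 and 7.94, ITPRIP with 5.24 and 9.69, and TMC8 with 3.81 and 4.54. The WT-only ones were KCNA2, KCNK1, VDAC2, the outer mitochondrial channel, and KCNV1. Olfactory receptors, of which only 37 had a gene-end region, gave 4 KO-only genes (10.8%) and 2 WT-only genes (5.41%). OR6A2 had folds of 6.52 and 5.18 in the DEK KO replicates, and OR2T11 had 4.43 and 6.20 in the WT control replicates.

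Transcription factors other than C2H2 zinc finger proteins had KO-only regions at 17 of 363 genes (4.68%) and WT-only regions at 6 (1.65%). ETS1, a founding ETS family factor, had folds of 4.15 and 4.59 in the DEK KO replicates, and ETV7 5.38 and 5.10. In WT control, TCF21, a bHLH factor of kidney mesenchyme and podocytes, had 6.02 and 6.49, HOXC10 3.09 and 3.15, and CREB3L2 3.28 and 3.62. C2H2 zinc finger genes, in contrast, were below the shares of all genes in both classes, with 5 KO-only (1.06%) and 6 WT-only (1.27%) of 473.

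Chromatin regulators had 9 KO-only genes (3.52%) and 2 WT-only genes (0.781%) of 256, led by PRDM9 and MLLT1. TET2, which oxidises methylated cytosine, had a KO-only region 564 bp from its stop with folds of 5.49 and 7.17, and ASXL3 had a WT-only region at its start with 3.17 and 3.84. Kinases and phosphatases had 12 KO-only (2.96%) and 3 WT-only genes (0.741%) of 405. MAPK3, the kinase ERK1, had folds of 3.71 and 4.07 in DEK KO at a region 599 bp from one of all 4 lists. ULK1, which initiates autophagy, had 2.69 and 2.88 in WT control.

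Transporters had 16 KO-only (4.66%) and 8 WT-only genes (2.33%) of 343. SLC6A13, a GABA transporter of kidney and liver, had folds of 7.08 and 6.56 in DEK KO, and SLC12A8 had 4.95 and 5.94 in WT control. Metabolic enzymes had 21 KO-only (3.64%) and 16 WT-only genes (2.77%) of 577. The KO-only ones included the stops of NMNAT3, a mitochondrial NAD enzyme, with 6.83 and 6.68, and ASS1, argininosuccinate synthase, with 6.25 and 9.20. The WT-only ones included ACMSD, a kidney enzyme of tryptophan breakdown, with 4.44 and 4.94.

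Receptors coupled to G proteins, with G proteins themselves, had 10 KO-only (4.85%) and 5 WT-only genes (2.43%) of 206. ADGRL1, an adhesion receptor of synapses, had folds of 5.14 and 9.15 in DEK KO, and CHRM3, a muscarinic receptor, had 5.96 and 4.72 in WT control. Growth factors, guidance molecules and their receptors had 10 KO-only (4.20%) and 6 WT-only genes (2.52%) of 238. SEMA3F, a secreted semaphorin, had 5.25 and 8.09 in DEK KO, while VEGFC, the lymphatic growth factor, had 3.83 and 2.51 and RSPO3, a WNT enhancer, 4.25 and 3.36 in WT control.

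Immune genes had 13 KO-only (3.70%) and 6 WT-only genes (1.71%) of 351. HLA-DQB1, a class II antigen-presenting chain, had folds of 4.56 and 6.17 at its start in DEK KO, and HLA-DMA, which loads class II molecules, had 5.70 and 5.90 at its stop in WT control. Ubiquitin and proteasome genes had 15 KO-only (3.14%) and 5 WT-only genes (1.05%) of 478. PSMB11 had 5.14 and 5.87 in DEK KO, and FBXO5, an inhibitor of the anaphase-promoting complex, had 4.52 and 5.31 in WT control. Cell cycle and repair genes had 3 KO-only (1.15%) and 0 WT-only genes of 260.

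The split between classes within a family moved when the lists were cut to equal length. With lists of equal length, KO-only genes still outnumbered WT-only genes among chromatin regulators (9 and 3), ion channels (7 and 4), other transcription factors (11 and 9), ubiquitin and proteasome genes (9 and 7) and immune genes (8 and 7). They also did among cytoskeleton, cilia and motor genes (10 and 8), growth factors and guidance molecules (9 and 8), matrix and cell adhesion genes (7 and 6) and histones (1 and 0). Over all genes the order turned, from 361 KO-only and 217 WT-only to 253 and 323. The same turn was seen for transporters (12 KO-only and 15 WT-only), metabolic enzymes (17 and 22) and receptors coupled to G proteins (6 and 11). Kinases and phosphatases had 5 of each. The order also turned for cell cycle and repair genes (1 and 2), and small GTPases and their regulators, with 7 of each in the full lists, had 6 and 12. With the −log10 q minimum of 5, chromatin regulators had 8 KO-only and 3 WT-only genes and ion channels 8 and 3, against 271 and 191 over all genes. Transporters (12 and 7), other transcription factors (13 and 7) and immune genes (11 and 4) also kept their order at that minimum. Kinases and phosphatases came to 9 and 8, metabolic enzymes to 13 and 14, and RNA processing genes to 2 and 7. Leaving out 1 library moved these counts further. Without WT control replicate 1, ion channels had 20 KO-only and 15 WT-only genes, and transporters as well as ubiquitin and proteasome genes 25 of each. All genes then gave 655 and 633. Without WT control replicate 2, chromatin regulators had 10 KO-only and 9 WT-only genes, against 596 and 607 over all genes. Without DEK KO replicate 1 chromatin regulators had 23 and 5 and ion channels 19 and 10, against 989 and 433 over all genes. Without DEK KO replicate 2 they had 24 and 14 and 18 and 9 in that order, against 862 and 453 over all genes.

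**Figure D5:**
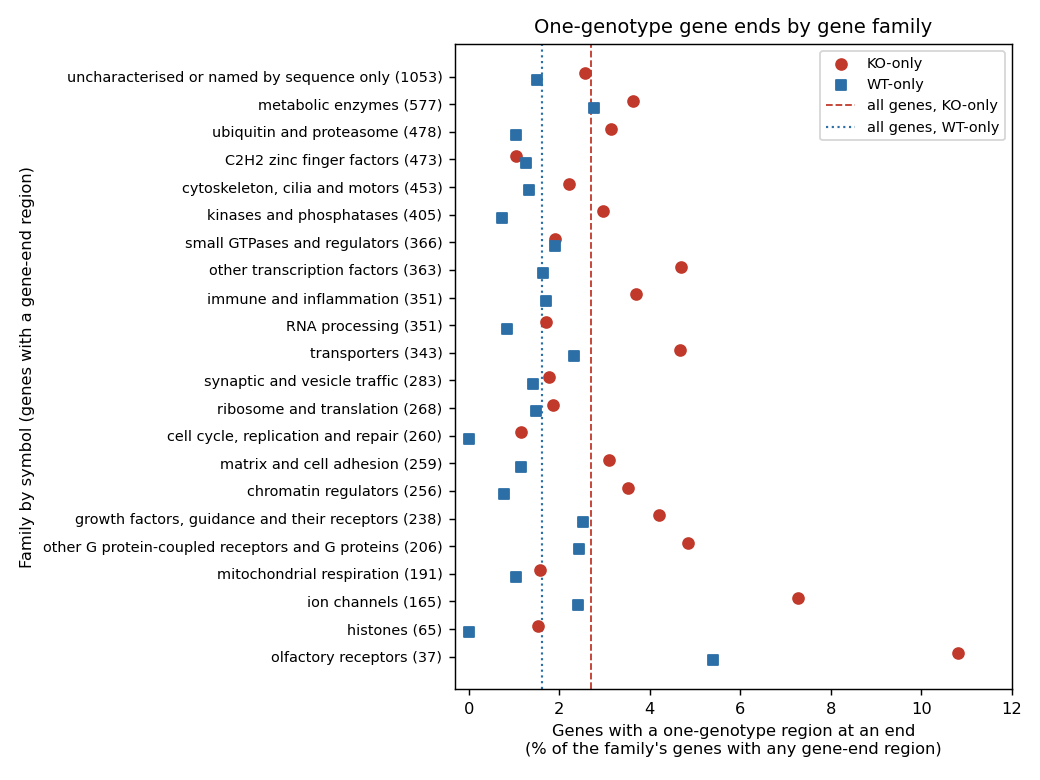
Share of each family's genes with any gene-end region that had a KO-only (red circles) or WT-only (blue squares) region (x axis, %), by family (y axis, with the number of genes with a gene-end region). Vertical lines are the shares of all genes, 2.69% KO-only and 1.62% WT-only, and ion channels stand at 7.27% and 2.42%.

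Gene lists that bear on DEK and on renal carcinoma are given as counts, beside shares of 2.69% KO-only and 1.62% WT-only over all genes with a gene-end region. With lists of this size, 1 gene more or less moves the share by several points. Of 30 DEK partners and histone chaperones with a gene-end region, 1 had a KO-only region, at the stop of NASP, which carries free histones, with folds of 5.13 and 5.67, and 0 had a WT-only one. Of 30 HIF targets, the genes that clear cell carcinoma induces when VHL is lost, 2 were KO-only and 0 WT-only. PFKFB3, which makes an activator of glycolysis, had 2.40 and 2.48 at its start, and ANGPTL4, a lipoprotein lipase inhibitor, had 3.80 and 2.93 at its stop. Glycolysis genes gave PFKFB3 and PKM, the pyruvate kinase gene, whose region is shared with GRAMD2A, and 0 WT-only genes of 20. With the −log10 q minimum of 5, HIF targets came to 2 KO-only genes and 1 WT-only gene, and glycolysis genes to 1 and 0.

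Kidney markers were split. Proximal tubule genes gave GGT1, the brush border enzyme gamma-glutamyltransferase, with folds of 5.83 and 5.18 in DEK KO, and ACMSD in WT control, of 18 with a gene-end region. Distal nephron genes gave PVALB, the parvalbumin of the distal convoluted tubule, with 4.12 and 6.21, and ATP6V0D2, a proton pump subunit of intercalated cells, with 6.62 and 9.06, both in DEK KO, of 9. Mesenchymal genes (18 with a gene-end region), epithelial genes (14), cell cycle genes (33) and p53 targets (21) held 0 members of either class. At the shares of all genes, each list would hold fewer than 1 KO-only gene and fewer than 1 WT-only gene.

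Interferon and inflammation genes gave 3 KO-only genes and 1 WT-only gene of 43. IL1B, the interleukin-1 beta gene, had folds of 4.68 and 4.14 at a region covering its start, CCL5, a chemokine, 3.64 and 6.84, and IFIT2, an interferon-induced antiviral gene, 3.60 and 3.11. In WT control CXCL9, an interferon-induced chemokine, had 4.75 and 4.72. The KO-only calls of this list did not meet the −log10 q minimum of 5, which left 0 KO-only genes and 1 WT-only gene. Among markers of other cell types, neuronal markers gave SLC17A7 in the KO-only class (1 of 11), hepatocyte markers APOB in the WT-only class (1 of 10), endothelial and fibroblast markers PDGFRB in the WT-only class (1 of 9), and blood cell markers 0 of 12.

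The 6 genes with a region of each class are given here by where the calls fell along the gene. With lists of equal length, the KO-only regions at SLC25A18, PKDCC and RCOR1 were no longer in their class. Only TGIF2-RAB5IF kept a region of each class with the −log10 q minimum of 5. MAT1A, the liver methionine adenosyltransferase, had a KO-only region covering its start, with folds of 5.64 and 4.83, and a WT-only region near its stop, with 4.004 and 3.72. SLC25A18, a mitochondrial glutamate carrier, had the opposite arrangement, a KO-only region near its stop with 3.98 and 3.55 and a WT-only region at its start with 5.03 and 4.27. LOC122455342 was KO-only at its start and WT-only near its stop. For PKDCC and TGIF2-RAB5IF the strand was unknown. TGIF2-RAB5IF had its 2 regions at opposite ends. Both PKDCC regions lay at the same end, the KO-only one 122 bp and the WT-only one 580 bp from it.

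RCOR1, a corepressor that pairs with the demethylase LSD1, had both classes at the same start. Its KO-only region (chr14:102593191-102593450, folds of 2.99 and 2.98) ended at the base before its WT-only region began (chr14:102593451-102593889, 3.19 and 2.88). The peaks of the 2 genotypes touched without sharing a base, so merging them at 1 bp of overlap made them members of opposite classes.

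Along the chromosomes, 18 KO-only and 2 WT-only members lay on chromosome 22, or 5.29% and 0.588% of its 340 gene-end regions, and over all merged regions chromosome 22 had 193 KO-only and 37 WT-only. Chromosome 17 had 28 KO-only and 9 WT-only members (3.06% and 0.984% of its gene-end regions), with 351 and 86 over all merged regions. Chromosome 1 had 25 KO-only and 28 WT-only members (1.51% and 1.69%), with 639 and 445 over all merged regions. Chromosome 19 had 31 KO-only and 12 WT-only members (3.06% and 1.19%), and chromosome 3 had 25 and 7 (2.97% and 0.830%). WT-only members were slightly more numerous on chromosome 2 (18 KO-only and 19 WT-only) and chromosome 11 (15 KO-only and 16 WT-only). Over all merged regions, KO-only regions were the more numerous class on every chromosome from 1 to 22. Chromosome 18 had 0 KO-only and 3 WT-only members, against 201 and 70 over all its merged regions. These counts carry no test.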

How the data were processed

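Each of the 4 libraries had 1 peak list that the authors deposited, so peaks were called per library. The submitters' processing notes list MACS2 2.2.7.1 beside Bowtie2 2.2.5, cutadapt 1.18, Picard 2.26.9 and SAMtools 1.7, and also ChIPseeker 1.32.1, deepTools 3.5.1 and DiffBind 3.6.5, on GRCh38 (hg38). Their settings, including any shift of reads for the transposase, are not given in the sources used here. Per column, the authors' lists hold a score, the fold (a ratio of pileup to background at the summit), p-values and q-values as −log10, and a summit offset in bp. Folds and −log10 values are relative to each library's own background, so they served here to rank, filter or describe peaks inside 1 deposited list.

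Merging, classing and gene-end distances were computed with Python 3.11.15, numpy 2.4.6, pandas 2.3.3 and scipy 1.17.1 and tested on simulated data; figures used matplotlib 3.10.9. Gene positions came from RefSeq GRCh38.p14, and start or stop from its promoter table. Library values were compared by a two-sided exact permutation test, and shares carry exact 95% binomial intervals. Named genes were, per class, the 12 starts and 8 stops with the highest lower percentile, the 3 highest per family or list, genes with both classes, and members at the limits of the rule; up to 6 promoters per class whose window the region covered were read out, of which 7 in all are printed. The members and lists were chosen with earlier results of these data known. Alternatives were list length, a −log10 q minimum, merging distance, coverage, window and leaving out each library. No genome sequence was at hand, so peak sequences were not analysed here.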

Additional observations from a re-analysis of the deposited data

How the results depend on the processing

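With every list cut to the length of the shortest there were 311 WT-only regions, the difference in gene-end peaks per list turned to -359.5 and that in the share at a start to 0.303 percentage points; this setting drops the weakest peaks of the longer lists. A window of 500 bp gave 207 KO-only and 126 WT-only regions, and a window of 2 kb gave 530 KO-only regions, as fewer or more regions fall inside it. Leaving out each library in turn gave 550 to 934 KO-only and 416 to 613 WT-only regions, since a class then needs agreement of 3 lists and not 4. The share at a start was 45.9% to 56.4% of KO-only and 51.9% to 62.7% of WT-only regions in those sets. Merging peaks up to 200 bp apart gave 330 KO-only and 204 WT-only regions, and asking for 25% cover gave 335 and 212 in that order. Only peaks with a −log10 q of at least 5 gave 247 and 182, of which 133 KO-only and 72 WT-only members were in the sets described above.

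With the replicate number as a block, the differences of 191.5 peaks and of -1.08 points had an exact permutation p of 0.5, the smallest that 2 pairs allow. Whether the numbers pair the samples is not given by the labels. The exact permutation test over 2 libraries a group cannot go below 0.333, and peak lists without read counts cannot show how far a region fell short of a call in the other genotype.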
